A study of Saccharomyces cerevisiae BY4741 with 8 samples.

Results

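Calcium, calmodulin and calcineurin signalling was described here by 10 yeast genes out of the 5782 genes in the files. The genes were *CMD1*, *CMK1*, *CMK2*, *CNA1*, *CMP2*, *CNB1*, *RCN1*, *CRZ1*, *PMC1* and *PMR1*. They were taken by name as the core components of the pathway, and the pathway was chosen because *CMK2* was higher with vanillin in both strains. The values of *CMK2* in the vanillin comparisons are therefore given as a description with no test. All 10 genes passed the filter on low counts and were among the 5506 genes tested. The study asked how vanillin, a phenolic aldehyde that inhibits yeast growth, and loss of the transcription factor Yrr1p change the transcriptome. mRNA was sequenced from 4 groups of 2 biological duplicates: BY4741 and BY4741(*yrr1*Δ), each in SD, a synthetic glucose medium, without vanillin or with 5 mM vanillin by the labels, where headers of the deposited comparison tables name 6 mM. BY4741 is a haploid *Saccharomyces cerevisiae* laboratory strain of mating type a with deletions in *HIS3*, *LEU2*, *URA3* and a methionine gene, which all 8 cultures share. In BY4741(*yrr1*Δ) the *YRR1* gene was in addition replaced by a KanMX drug resistance cassette, and the number of independent transformants behind the strain is not given in the sources used here. All cultures started at an OD600 of 0.2, grew at 30°C and were harvested in log phase at an OD600 between 1.6 and 2.0.

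In budding yeast a rise of cytosolic Ca2+ loads calmodulin, the small Ca2+ sensor encoded by *CMD1*. Calmodulin then activates the protein kinases Cmk1p and Cmk2p and the phosphatase calcineurin, which is built from a catalytic subunit, Cna1p or Cmp2p, and the regulatory subunit Cnb1p. Calcineurin dephosphorylates the transcription factor Crz1p, which enters the nucleus and binds the calcineurin-dependent response element upstream of its targets. The Ca2+ pumps Pmc1p and Pmr1p return Ca2+ to the vacuole and the Golgi, and Rcn1p binds calcineurin and regulates it. The pathway is known in yeast for its part in survival of salt, pheromone and cell wall stress.

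Short stretches upstream of *CMK2* and *PMC1* are shown because these genes gave the highest vanillin to SD medium differences among the kinases and the pumps. Each run covers 150 bases on the gene's own strand, beginning 250 bases before the start codon, read from the RefSeq sequence of build R64. The capitals mark matches to the calcineurin-dependent response element, searched as GNGGCTCA and GNGGCGCA, and to the general stress response element, searched as CCCCT, on both strands.
CMK2 (chrXV:296221-296370, minus strand): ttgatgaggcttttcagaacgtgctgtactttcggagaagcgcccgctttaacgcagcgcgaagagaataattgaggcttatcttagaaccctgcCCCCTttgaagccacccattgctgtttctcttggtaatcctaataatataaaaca
PMC1 (chrVII:485671-485820, plus strand): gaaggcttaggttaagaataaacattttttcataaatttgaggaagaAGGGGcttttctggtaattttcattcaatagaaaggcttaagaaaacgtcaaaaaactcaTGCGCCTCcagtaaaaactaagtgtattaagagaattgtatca
The *CMK2* stretch held a CCCCT match with 150 bases between it and the start codon. The *PMC1* stretch held CCCCT as AGGGG on the opposite strand and one calcineurin-type match, TGCGCCTC, which reads as GNGGCGCA on the opposite strand and lay 135 bases from the start codon. *PMC1* was the 1 member of 10 with GNGGCTCA or GNGGCGCA in the 500 bases before its start codon, where 3.73% of 5472 such windows held one. CCCCT was found in 6 of the 10 windows, those of *CMD1*, *CMK1*, *CMK2*, *CMP2*, *CRZ1* and *PMC1*, and in 34.1% of all windows. Neither GAGGCTG, a core described for the *FKS2* promoter, nor TCCGNGGA, the pleiotropic drug response element, was found in a member's window, and they stood in 3.05% and 2.96% of all windows. These are matches of letters, and the motifs share no bases in the matches shown.

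The libraries held 2195324 to 2453837 expected counts each, and the 10 most abundant genes took 12.1% to 16.8% of them. *YRR1* had 73 to 100 counts in the 4 BY4741 libraries and 0 to 2 in the 4 BY4741(*yrr1*Δ) libraries. *URA3*, *LEU2* and the methionine gene *MET17*, markers that BY4741 lacks, had 0 to 2, 0 to 2 and 0 to 9 counts in every library. Counts of the 10 members ranged from 72 to 2386. Levels in one library are given as CPM, the counts scaled to a common library total, after TMM scaling, replicate 1 first, and means with ± 1 standard deviation over 2 libraries. Bulk RNA cannot tell fewer cells expressing a gene from less RNA per cell.

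*CMK2*, one of the pair of calmodulin-dependent protein kinase genes, was higher with vanillin in both strains, and *CMK1* was not. In BY4741 *CMK2* gave 293 and 215 CPM in SD medium. With vanillin it gave 600.1 and 601.0 CPM in BY4741. In BY4741(*yrr1*Δ) the levels were 228 and 288 CPM in SD medium and 952 and 774 CPM with vanillin. All 4 vanillin libraries lay above all 4 SD medium libraries, and both vanillin libraries of the deletion strain lay above both of BY4741. The fold difference of *CMK2* between vanillin and SD medium was 2.36 in BY4741 (log2 1.24, standard error 0.21). It was 3.34 in BY4741(*yrr1*Δ) (log2 1.74, standard error 0.22). These differences chose the pathway, so they carry no test here. Leaving out 1 library at a time moved the log2 difference between 1.03 and 1.45 in BY4741 and between 1.57 and 1.92 in the deletion strain.

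*CMK1* (YFR014C, chromosome VI, 172537 to 173877, minus strand) encodes the other kinase. It gave 109 and 75.3 CPM in BY4741 in SD medium and 60.4 and 80.7 CPM with vanillin. The deletion strain gave 82.8 and 97.3 CPM in SD medium and 78.6 and 55.6 CPM with vanillin. The groups overlapped in BY4741 and lay lower with vanillin in BY4741(*yrr1*Δ). The log2 difference was −0.38 in BY4741 and −0.43 in the deletion strain, and neither passed edgeR's quasi-likelihood test (FDR 0.463 and 0.314). *CMK2* (YOL016C) lies on chromosome XV, 294777 to 296120, minus strand. The coding sequences of both kinases were 68.0% identical over the aligned bases, with no shared run longer than 17 bases.

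Per length, the balance of the kinases moved with vanillin. The ratio of *CMK2* to *CMK1* in FPKM, the fragments scaled by gene length and library total, was 2.69 and 2.84 in BY4741 in SD medium and 9.91 and 7.43 with vanillin. In BY4741(*yrr1*Δ) it was 2.74 and 2.95 in SD medium and 12.1 and 13.9 with vanillin. The ratio was thus close to 3 in the 4 libraries without vanillin and lay above 7 in the 4 with it. The ratio contains the values that chose the pathway and was not tested.

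**Figure D1:**
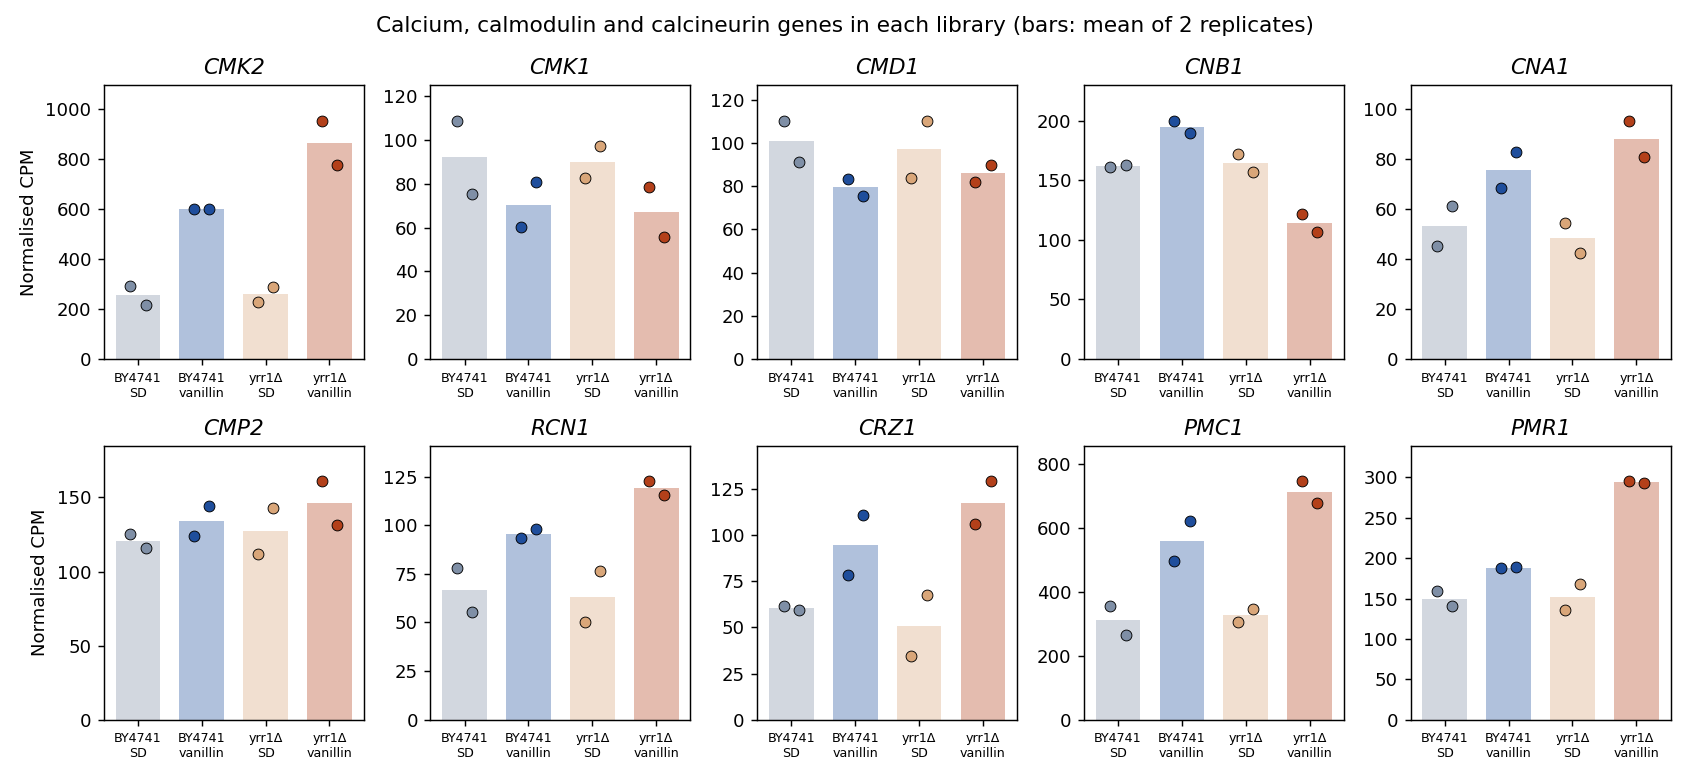
Level of each of the 10 genes in CPM in every library, with a panel and a linear axis for each gene. Each library is 1 point, bars show group means, and the 4 groups stand side by side. *CMK2* sits at 215 to 293 CPM without vanillin and at 600.1 to 952 CPM with it, while *CNB1* is lowest, at 106 and 122 CPM, in BY4741(*yrr1*Δ) with vanillin.

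Of the 9 genes other than *CMK2*, 5 rose with vanillin in BY4741(*yrr1*Δ) and 0 fell, in edgeR's quasi-likelihood test with calls made at FDR values up to 0.05. Among all genes tested, 11.2% were called in that comparison in both directions, 252 up and 365 down. In BY4741 0 of the 9 were called, where 3.14% of all genes were. One of the 9 had an unadjusted p under 0.05 there, *PMC1*, beside 1007 of the 5506 genes tested. DESeq2 called 1 of the 9 and 290 of all genes, and limma on FPKM 0 and 209. Because the pathway was chosen on these comparisons, nothing is read from the counts against the shares of all genes. The 9 genes had a median log2 difference of 0.33 in BY4741, beside −0.02 over all genes, and of 0.87 in the deletion strain, beside 0.01. The strains are compared directly further on, since a call in one strain and none in the other is no test of a difference. Not all 5 calls held without 1 library of the deletion strain, and such fits called fewer of all genes too. Each such fit has 1 sample in an arm, which is assumed to vary like the other groups. The log2 differences then ran from 0.70 to 1.04 for *CNA1*, 0.63 to 1.25 for *RCN1* and 0.79 to 1.76 for *CRZ1*. For the pump genes they ran from 1.02 to 1.22 (*PMC1*) and from 0.79 to 1.12 (*PMR1*).

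The calmodulin gene itself, *CMD1* (YBR109C, chromosome II, 457919 to 458362, minus strand), was not called in either strain. It gave 110.1 and 91.4 CPM in BY4741 in SD medium and 83.5 and 75.5 CPM with vanillin. In the deletion strain it gave 83.7 and 110.3 CPM in SD medium and 82.2 and 90.0 CPM with vanillin. The BY4741 libraries did not overlap and those of the deletion strain did. The log2 differences were −0.34 (FDR 0.406) and −0.17 (FDR 0.607) in edgeR's quasi-likelihood test.

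Among the calcineurin subunits, *CNA1* rose in the deletion strain, *CMP2* was not called in either strain, and *CNB1* went in opposite directions in the 2 strains without passing the test. *CNA1* (YLR433C, chromosome XII, 1004347 to 1006008, minus strand), one of the catalytic subunit genes, gave 45.3 and 61.1 CPM in BY4741 in SD medium and 68.4 and 83.0 CPM with vanillin. The deletion strain gave 54.4 and 42.5 CPM in SD medium and 95.3 and 81.0 CPM with vanillin. Vanillin libraries lay above SD medium libraries in both strains. The increase was 1.82-fold in BY4741(*yrr1*Δ) (log2 0.87, standard error 0.23, FDR 0.0446, edgeR's quasi-likelihood test), and the log2 difference in BY4741 was 0.51 (FDR 0.280). With replicate number as a block in the fit, *CNA1* was no longer called in the deletion strain. The call in the deletion strain was lost in each of the 4 fits that left out one of its libraries (FDR 0.0705 to 0.167) and with only the 4 libraries compared (FDR 0.0896).

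*CMP2* (YML057W, chromosome XIII, 160180 to 161994, plus strand), the paralog of *CNA1* with 69.0% coding identity, was not called in either strain. Its means were 121 ± 6.49 and 134 ± 14.5 CPM in BY4741 without and with vanillin, and 127 ± 21.7 and 146 ± 20.7 CPM in the deletion strain. The log2 differences of 0.15 and 0.20 were within the spread of the libraries (FDR 0.719 and 0.560, edgeR's quasi-likelihood test). The FPKM ratio of *CMP2* to *CNA1* was 1.73 to 3.05 in the 4 SD medium libraries and 1.47 to 1.65 in the 4 vanillin libraries, with no overlap.

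*CNB1* (YKL190W, chromosome XI, 82947 to 83550, plus strand, 2 coding exons) encodes the regulatory subunit. It gave 161 and 163 CPM in BY4741 in SD medium and 200.0 and 189 CPM with vanillin. The corresponding levels in the deletion strain were 172 and 157 CPM in SD medium and 122 and 106 CPM with vanillin. Vanillin libraries were thus the highest of all in BY4741 and the lowest of all in the deletion strain, with no overlap in either. The log2 difference was 0.26 in BY4741 (standard error 0.17, FDR 0.442) and −0.53 in BY4741(*yrr1*Δ) (standard error 0.17, FDR 0.0853), so neither was called by edgeR's quasi-likelihood test.

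The FPKM ratio of the summed catalytic subunits to *CNB1*, chosen after the values were seen, gives the balance of the transcripts. It was 0.253 and 0.263 in BY4741 in SD medium, 0.235 and 0.289 in BY4741 with vanillin, and 0.241 and 0.283 in the deletion strain in SD medium. The deletion strain with vanillin gave 0.510 and 0.473. The last group stood above the other 3, whose libraries overlapped with each other.

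**Figure D2:**
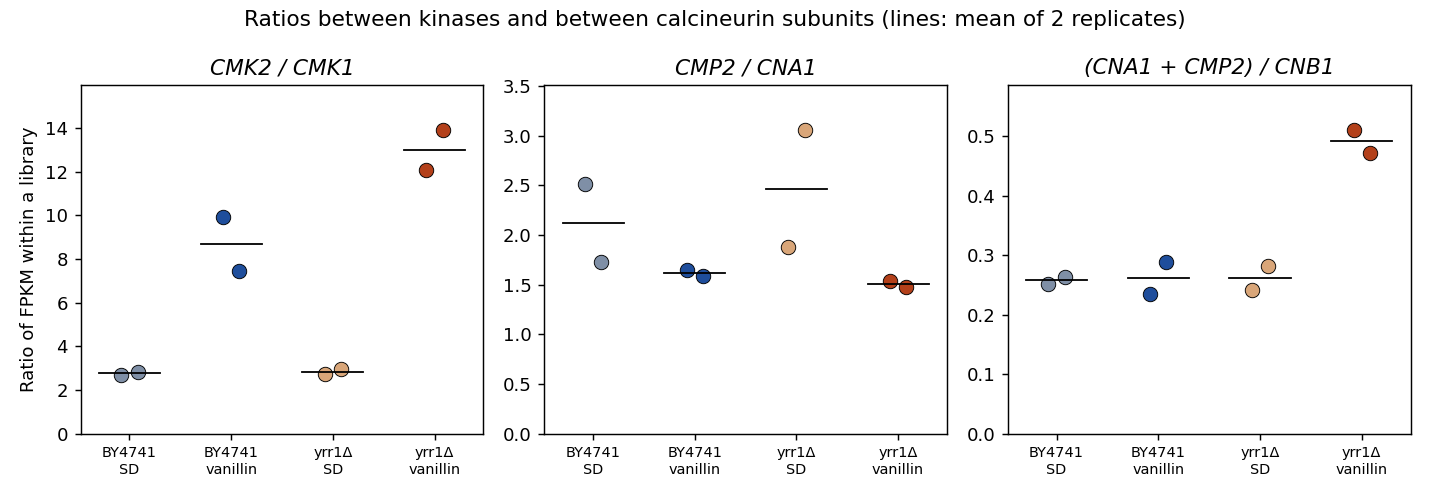
Ratios of FPKM between members in every library, 1 point per library: *CMK2* to *CMK1*, *CMP2* to *CNA1*, and the summed catalytic calcineurin subunits to *CNB1*. The subunit ratio is 0.473 and 0.510 in BY4741(*yrr1*Δ) with vanillin and 0.235 to 0.289 in the other 6 libraries.

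*RCN1* (YKL159C, chromosome XI, 153816 to 154451, minus strand), the calcineurin regulator, rose in the deletion strain. It gave 78.2 and 55.4 CPM in BY4741 in SD medium and 93.4 and 97.9 CPM with vanillin. In BY4741(*yrr1*Δ) the values were 50.0 and 76.2 CPM in SD medium and 122 and 115 CPM with vanillin. Vanillin libraries lay above SD medium libraries in both strains, and the SD medium duplicates were the less alike. The increase in BY4741(*yrr1*Δ) was 1.88-fold (log2 0.91, standard error 0.25, FDR 0.0465), and the log2 difference in BY4741 was 0.52 (FDR 0.299, edgeR's quasi-likelihood test). The call held without SD medium replicate 2 (log2 1.25) and was lost without SD medium replicate 1 (log2 0.63) or either vanillin library (FDR 0.121 to 0.183 over the 3 fits). It was also lost with no filter on low counts (FDR 0.0515), with only the 4 libraries compared (FDR 0.101) and with replicate number as a block in the fit.

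*CRZ1* (YNL027W, chromosome XIV, 579580 to 581616, plus strand), the transcription factor, gave 61.7 and 59.3 CPM in BY4741 in SD medium and 78.3 and 111 CPM with vanillin. Without Yrr1p the levels were 34.6 and 67.4 CPM in SD medium and 106 and 129 CPM with vanillin. Groups did not overlap in either strain, but the SD medium duplicates of the deletion strain differed by more on the log2 scale than those of any other member. *CRZ1* rose 2.29-fold in BY4741(*yrr1*Δ) (log2 1.20, standard error 0.31, FDR 0.0387), and in BY4741 the log2 difference was 0.64 (FDR 0.298, edgeR's quasi-likelihood test). Without SD medium replicate 1 of the deletion strain, the library with 34.6 CPM, the log2 difference was 0.79 and the call was lost (FDR 0.130), and without replicate 2 it was 1.76 and the call held. It was also lost without either vanillin library (FDR 0.0899 and 0.1503) and with only the 4 libraries compared (FDR 0.0855).

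Both Ca2+ pump genes rose in BY4741(*yrr1*Δ). *PMC1* (YGL006W, chromosome VII, 485921 to 489442, plus strand), the vacuolar Ca2+ ATPase, gave 356 and 266 CPM in BY4741 in SD medium and 495 and 621 CPM with vanillin. In the deletion strain it gave 306 and 347 CPM in SD medium and 745 and 678 CPM with vanillin. All 4 vanillin libraries lay above all 4 without vanillin. *PMC1* rose 2.18-fold in BY4741(*yrr1*Δ) (log2 1.12, standard error 0.20, FDR 0.0104), and in BY4741 it was 1.80-fold higher without passing the limit (log2 0.84, standard error 0.20, FDR 0.0612, edgeR's quasi-likelihood test). DESeq2 called *PMC1* in BY4741 as well. In the deletion strain the call was lost without SD medium replicate 1 (log2 1.02, FDR 0.0542) or vanillin replicate 1 (log2 1.05, FDR 0.0568) and held without either other library.

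*PMR1* (YGL167C, chromosome VII, 187616 to 190468, minus strand), the Golgi Ca2+ and Mn2+ ATPase, gave 159 and 140.3 CPM in BY4741 in SD medium and 187 and 189 CPM with vanillin. For the deletion strain they were 135 and 168 CPM in SD medium and 295 and 293 CPM with vanillin. The 2 vanillin libraries of the deletion strain stood above the other 6. The increase in BY4741(*yrr1*Δ) was 1.94-fold (log2 0.96, standard error 0.18, FDR 0.0125), and in BY4741 the log2 difference was 0.33 (FDR 0.362, edgeR's quasi-likelihood test). The call held without SD medium replicate 2 and was lost without SD medium replicate 1 (log2 0.79, FDR 0.0645), without either vanillin library (FDR 0.0543 and 0.0592) and with only the 4 libraries compared (FDR 0.0609). *HUR1* overlaps *PMR1* on the other strand by 181 bases and had 15 to 32 counts in each library. Whether the counting used strand is not given in the sources used here.

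**Figure D3:**
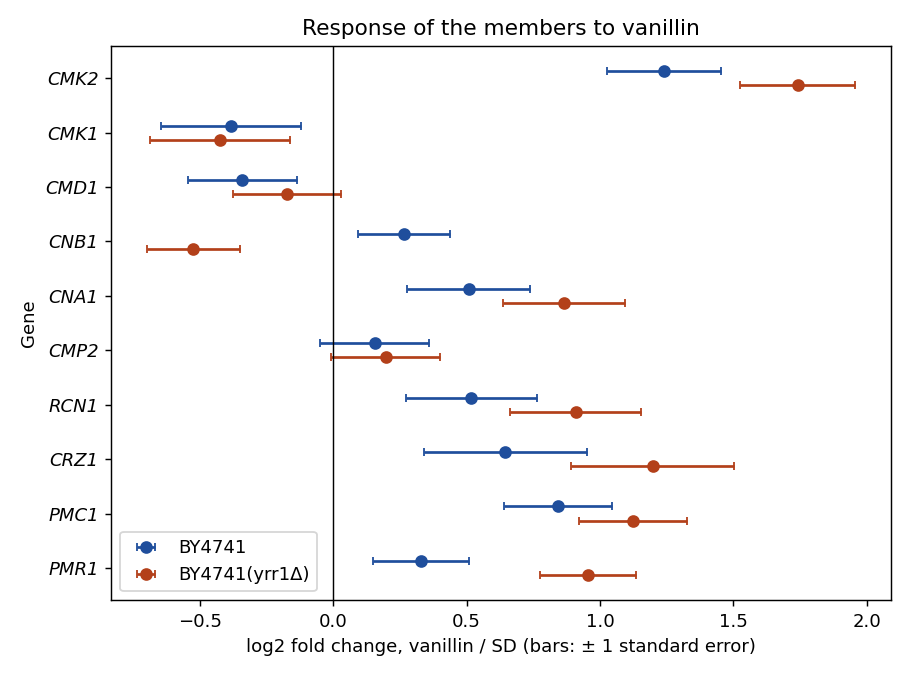
log2 fold change between vanillin and SD medium for each of the 10 genes in both strains, with bars of ± 1 standard error from the edgeR fit. *CMK2* is at 1.24 and 1.74, the genes from *CNA1* and *RCN1* to *PMR1* are positive in both strains, and *CNB1* is at 0.26 and −0.53.

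Other genes of the pathway were counted by lists picked from general knowledge of the pathway with earlier results of these data known. Among 11 genes described as Crz1p targets, 2 rose and 0 fell in BY4741, and 5 rose and 0 fell in the deletion strain, in edgeR's quasi-likelihood test. Calls over all genes stood at 3.14% (128 up, 45 down) and 11.2% (252 up, 365 down). The list's median log2 difference in BY4741 was 0.57, beside −0.02 over all genes, with 10 of 11 positive. In the deletion strain it was 0.80, beside 0.01, with 11 of 11 positive. Over all genes tested, 47.9% were positive in BY4741 and 51.3% in the deletion strain. Since the list was picked with earlier results known, nothing is read from its counts against those of all genes. Without 1 library at a time, the list's median ran from 0.52 to 0.70 in BY4741 and from 0.52 to 0.86 in the deletion strain. Fewer of all genes were called in each such fit, so counts of the list there are not given. With only the 4 libraries compared, 3 of the 11 were called in BY4741, beside 268 of all genes. In the deletion strain 1 was called, beside 284 of all genes. DESeq2 called 4 and 6 of the 11, beside 290 and 659 of all genes.

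*GSC2*, also known as *FKS2*, encodes an alternative subunit of the glucan synthase that builds cell wall glucan, and it also answers to cell wall integrity signalling. It gave 225 and 277 CPM in BY4741 in SD medium and 787 and 779 CPM with vanillin. The deletion strain gave 308 and 251 CPM in SD medium and 884 and 621 CPM with vanillin. It rose by log2 1.64 in BY4741 (FDR 0.00547) and by 1.43 in BY4741(*yrr1*Δ) (FDR 0.00626, edgeR's quasi-likelihood test). The 4 vanillin libraries lay above the 4 others. *NCW2*, a cell wall protein gene, rose by 0.98 in BY4741 (FDR 0.0397) and 0.93 in the deletion strain (FDR 0.0236). *GYP7*, which encodes an activator of a vacuolar Rab GTPase, rose by 1.11 in the deletion strain (FDR 0.0157, BY4741 0.52 at FDR 0.252). *PUN1*, a plasma membrane protein gene, rose by 0.81 there (FDR 0.0298), and *PLB3*, a phospholipase B gene, by 0.80 (FDR 0.0291). Their log2 differences in BY4741 were 0.50 and 0.57 (FDR 0.205 and 0.149). Of the calls given in this paragraph, only that of *GSC2* in the deletion strain held in every fit without 1 library. In those fits the log2 difference in BY4741 ran from 1.47 to 1.80 for *GSC2* and from 0.87 to 1.07 for *NCW2*. In the deletion strain it ran from 0.67 to 1.16 for *NCW2* and 0.88 to 1.32 for *GYP7*. The ranges there were 0.58 to 1.00 for *PUN1* and 0.68 to 0.90 for *PLB3*.

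Of 8 genes listed for Ca2+ entry and exchange, among them the channel genes *CCH1* and *MID1* and the vacuolar exchanger gene *VCX1*, 7 were tested. None was called in either strain by edgeR's quasi-likelihood test, by DESeq2 or by limma on FPKM. In each strain 1 had an unadjusted p under 0.05, beside 1007 of the 5506 genes tested in BY4741 and 1599 in the deletion strain. Their median log2 difference was −0.16 in BY4741 and −0.03 in the deletion strain, with 2 of 7 positive in both. *KCH1*, a potassium transporter gene linked to Ca2+ entry and named after its values were seen, was the nearest to the limit in BY4741, with 47.1 and 51.1 CPM in SD medium and 28.3 and 25.6 CPM with vanillin (log2 −0.86, FDR 0.0575, edgeR's quasi-likelihood test). *FIG1*, the eighth, had 0 to 3 counts per library and was not tested. Among 9 other regulators and substrates of calcineurin, 0 were called in either strain by the 3 tools. An unadjusted p under 0.05 was found for 0 and 2 of them, beside the 1007 and 1599 of all genes given above. Their medians were 0.08 in BY4741 and 0.28 in the deletion strain.

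Among 9 genes for calmodulin-binding proteins and related kinases, 0 rose and 2 fell in each strain, with medians of −0.17 and −0.10 beside −0.02 and 0.01 over all genes. Of the 5506 genes tested, 45 fell in BY4741 and 365 in the deletion strain. The 2 genes were *GAD1* and *RCK1*. *GAD1* encodes glutamate decarboxylase, an enzyme of glutamate breakdown that binds calmodulin in plants. It gave 925 and 593 CPM in BY4741 in SD medium and 261 and 346 CPM with vanillin. The corresponding levels in the deletion strain were 819 and 1078 CPM in SD medium and 196 and 170 CPM with vanillin. *GAD1* fell by 1.32 on the log2 scale in BY4741 (FDR 0.0305), and in the deletion strain it fell by 2.37 (FDR 0.00215, edgeR's quasi-likelihood test). In BY4741 the call was lost in 3 of the 4 fits without 1 library, with a log2 difference of −0.996 without SD medium replicate 1, −1.13 without vanillin replicate 1 and −1.54 without vanillin replicate 2. *RCK1* encodes a protein kinase that resembles the calmodulin-dependent kinases and acts in oxidative stress. It had 87 and 107 counts in BY4741 in SD medium and 6 and 4 with vanillin, and 79 and 47 counts in BY4741(*yrr1*Δ) in SD medium and 16 and 5 with vanillin. *RCK1* fell by 4.13 on the log2 scale in BY4741 (FDR 0.00560), and in the deletion strain it fell by 2.77 (FDR 0.0105, edgeR's quasi-likelihood test). The BY4741 call was lost without either vanillin library (FDR 0.0626 and 0.0943). The call in the deletion strain was lost without vanillin replicate 2 (log2 −2.16, FDR 0.0624).

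**Figure D4:**
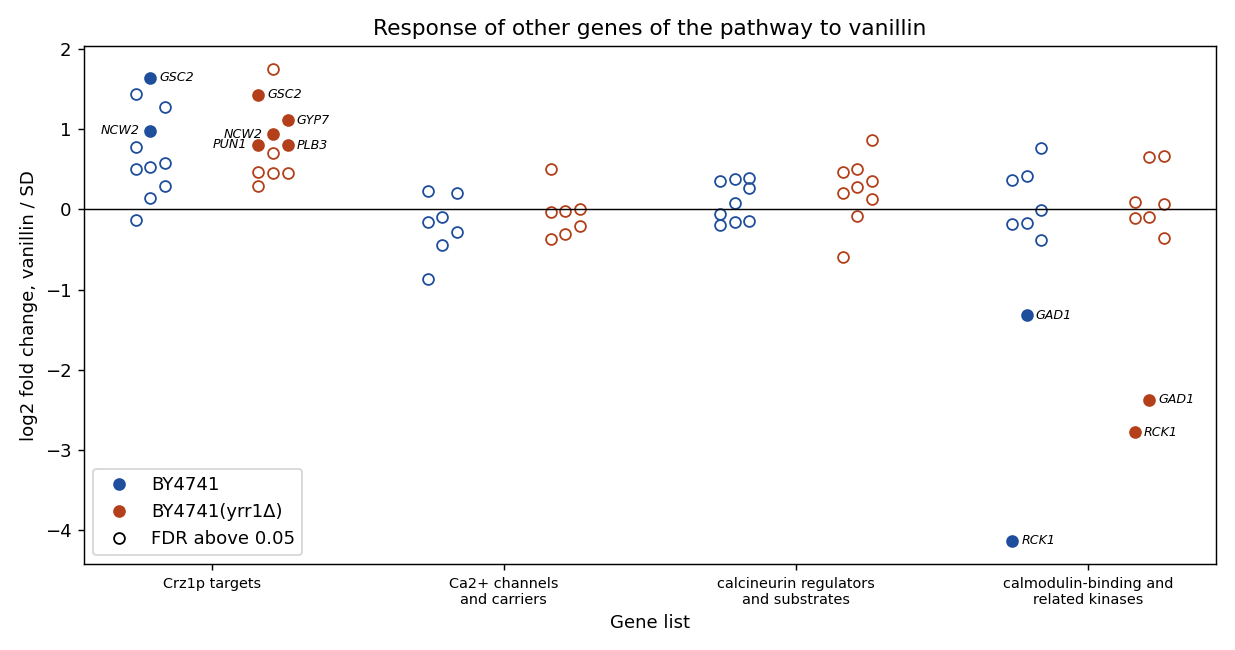
log2 fold change between vanillin and SD medium for the genes of 4 pathway lists in both strains, 1 point per gene, filled where the FDR was at most 0.05. The Crz1p targets lie mostly above 0, with 2 filled points for BY4741 and 5 for the deletion strain, and the 2 filled points of the calmodulin list, *GAD1* and *RCK1*, lie below −1 in both strains.

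Loss of *YRR1* was not seen to change the members in SD medium. This comparison was not used to choose the genes. 0 of the 10 were called by edgeR's quasi-likelihood test, where 0.0182% of all genes were called. An unadjusted p under 0.05 was found for 0 of the 10 and for 98 of the 5506 genes tested. DESeq2 and limma on FPKM also called 0 members. The log2 differences between BY4741(*yrr1*Δ) and BY4741 ran from −0.24 for *CRZ1* to 0.08 for *CMP2*, and the libraries of the strains overlapped for every member. For *CMK2* the difference was 0.02 and the means were 258 ± 42.7 CPM in the deletion strain and 254 ± 55.5 CPM in BY4741. The 95% interval was widest for *CRZ1*, from −0.95 to 0.47, so differences of that size could not be told from 0 with 2 libraries a group.

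With vanillin 0 of the 10 members were called between the strains by edgeR's quasi-likelihood test, where 0.618% of all genes were called. 3 had an unadjusted p under 0.05, beside 1263 of the 5506 genes tested. DESeq2 called 1 member, *CNB1*, and 257 of all genes, and limma on FPKM called 0 members and 50 of all genes. The 3 members with an unadjusted p under 0.05 were *CNB1*, *PMR1* and *CMK2*. *CNB1* was lower in the deletion strain, at 0.586 times its BY4741 level (log2 −0.77, 95% interval −1.17 to −0.38, FDR 0.0854). *PMR1* was 1.56-fold higher (log2 0.64, interval 0.24 to 1.05, FDR 0.106) and *CMK2* 1.44-fold higher (log2 0.52, interval 0.05 to 1.00, FDR 0.189). For each of the 3 the vanillin libraries of the strains did not overlap, and the same held for *RCN1* and *PMC1*. How many of all genes did so was not counted, so nothing is read from this lack of overlap. Scaling by library size alone raised the median of all genes in this comparison by 0.156 on the log2 scale, and *CMK1* then changed from −0.07 to 0.08.

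The difference of the vanillin response between the strains was tested as an interaction, in which 0 of the 10 members were called by edgeR's quasi-likelihood test, where 0.0908% of all genes were called. DESeq2 and limma on FPKM also called 0 members. *CNB1* and *PMR1* had an unadjusted p under 0.05, beside 1130 of the 5506 genes tested. The interaction was −0.79 for *CNB1* (log2, 95% interval −1.34 to −0.24, FDR 0.148) and 0.63 for *PMR1* (interval 0.05 to 1.20, FDR 0.214). For *CMK2* it was 0.50 (interval −0.17 to 1.17, FDR 0.365), so the larger fold difference of *CMK2* in the deletion strain was not distinguished from that in BY4741. For 4 of the genes that rose in the deletion strain the 95% interval included 0. Without 1 library at a time, *PMC1* at 0.28 ran from 0.075 to 0.48, *RCN1* at 0.39 from 0.14 to 0.73, *CNA1* at 0.36 from 0.13 to 0.58 and *CRZ1* at 0.55 from 0.17 to 1.12.

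By level per length, the regulatory subunit and calmodulin led the members without vanillin. In BY4741 in SD medium *CNB1* had 423 ± 8.23 FPKM, *CMD1* 335 ± 54.6, *CMK2* 215 ± 51.8 and *RCN1* 137 ± 36.6. *PMC1*, *CMK1* and *CMP2* followed with 94.1, 78.4 and 73.5 FPKM, and *PMC1* overlapped *CMK1*, which overlapped *CMP2*. *CNA1* and *CRZ1* were the lowest, with 35.6 and 32.6 FPKM, and overlapped. The order in BY4741(*yrr1*Δ) in SD medium was the same for the means of the first 5 genes, with *CNB1* at 400.1 and *CMK2* at 209 FPKM, but *CMD1* overlapped *CMK2* there and *RCN1* overlapped *PMC1*.

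With vanillin the order changed at the top. In BY4741 *CMK2* at 471 ± 9.62 FPKM and *CNB1* at 469 ± 23.7 FPKM overlapped. In BY4741(*yrr1*Δ) *CMK2* led alone at 755 ± 70.0 FPKM. *CNB1* at 311 and *CMD1* at 302 FPKM came next and overlapped, followed by *RCN1* at 254 and *PMC1* at 222 FPKM. *CMK1*, at 58.7 ± 11.2 FPKM, was the lowest member there and overlapped *CNA1* at 61.1 FPKM.

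The members whose levels followed *CMK2* most closely over the 8 libraries were *PMC1* (Pearson correlation of log2 CPM 0.985), *RCN1* (0.950) and *PMR1* (0.926). *CRZ1* had 0.867, *CNA1* 0.832 and *CMP2* 0.697. Among all genes tested, *CMK2* itself counted, 2 had a higher value than *PMC1*, 50 than *RCN1* and 93 than *PMR1*. For *CRZ1*, *CNA1* and *CMP2* the numbers were 206, 278 and 625. *CNB1*, *CMD1* and *CMK1* had negative values of −0.436, −0.497 and −0.546. Outside the pathway the 5 genes most like *CMK2* were *RIE1* (0.988), which encodes an RNA-binding protein, *YJL213W* (0.984), *VPS36* (0.983), which encodes a subunit of an endosomal sorting complex, *ECM8* (0.982) and *RIM8* (0.981), which encodes an arrestin-like protein of external pH signalling. These correlations describe 8 points that fall into vanillin and SD medium libraries and share their depth within a library, and they carry no p.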

How the data were processed

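mRNA of 8 cultures was sequenced. The authors deposited, per library and gene, expected counts (estimated, not always whole) and FPKM, mapped to build R64 per the submitters' notes. The aligner, the counting tool and the strand setting are not given in the sources used here. Deposited comparison tables hold the authors' group means, ratios and probabilities and were not used. Their headers name 6 mM vanillin where the labels say 5 mM, which bears on the dose behind every vanillin value.

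Expected counts were rounded, filtered (edgeR filterByExpr), scaled by TMM and fitted over 5506 genes and all 8 libraries with edgeR 4.0.16 (quasi-likelihood test, R 4.3.3), with 4 residual degrees of freedom and Benjamini-Hochberg FDR of at most 0.05. Standard errors were derived from the fold change and its F statistic. Replicates differed by more than sampling noise, and p-values cover the spread between duplicates. Alternatives were DESeq2 1.42.0, limma 3.58.1 on log2(FPKM + 1) and log2(FPKM + 0.1), library size alone, DESeq2 size factors, no filter, only the 4 libraries compared, the methods' limits (fold of at least 2, FDR of at most 0.001), a replicate block and leaving out each library. Scripts were tested on simulated data. Named were all 10 members, list genes called with vanillin, strain checks and the 5 genes most like *CMK2*. Members and lists were chosen with earlier results of these data known. Motifs and positions came from RefSeq R64.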

Additional observations from a re-analysis of the deposited data

How the results depend on the processing

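Of the 9 members other than *CMK2*, 0 were called with vanillin in BY4741 and 1 with DESeq2. In BY4741(*yrr1*Δ) 5 were called, 0 at the methods' limits, 1 with only the 4 libraries compared and 3 with the replicate block. Over all genes these settings gave 617, 15, 284 and 400 calls. Not all 5 calls held without 1 library, where fewer of all genes were called too. Between strains with vanillin DESeq2 called 1 against 0. Replicate numbers were not seen to pair the samples. Same-number deviations correlated at −0.584 between the SD medium groups of the strains and at −0.0935 to 0.18 in the other pairs of groups. In SD medium, replicate 1 of one strain thus tended to move with replicate 2 of the other, and the cause was not tested. With the replicate block 0 and 3 of these 9 members were called in the vanillin comparisons and 0 of 10 members in the other 3, and over all genes 99, 400, 1, 12 and 0 against 173, 617, 1, 34 and 5. The strain comparison in SD medium, fitted on its 4 libraries with crossed numbers, gave 75 calls over all genes. It gave 0 with the same numbers and 0 with no block, and 0 members in each.

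With library size alone the all-gene calls were 115 up and 67 down against 128 and 45 in BY4741, 384 and 305 against 252 and 365 in BY4741(*yrr1*Δ), and 8 and 24 against 2 and 32 between strains with vanillin, and the all-gene median moved by −0.108, 0.111 and 0.156. DESeq2 called 209 up and 81 down, 272 and 387, and 94 and 163 in these comparisons, and in the interaction 60 and 156 against 0 and 5. Signs changed for members near 0. With limma at both pseudocounts *CMD1* with vanillin in BY4741(*yrr1*Δ) was 0.017 and 0.017. Between strains in SD medium, library size alone and limma (+ 1, + 0.1) gave *CMK2* −0.035, −0.047 and −0.047, *CNB1* −0.049, −0.081 and −0.081, *PMR1* −0.038, −0.058 and −0.059, and limma gave *CMP2* −0.0034 and −0.0038. *CMK1* was 0.080, 0.084 and 0.085 between strains with vanillin and 0.17, 0.17 and 0.17 in the interaction. The cause of these changes was not tested.

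Without 1 library, *CMD1* with vanillin in BY4741(*yrr1*Δ) ran from −0.37 to 0.041. Between strains in SD medium the ranges were −0.27 to 0.13 for *CMD1*, −0.27 to 0.24 for *CMK1*, −0.19 to 0.25 for *CMK2*, −0.35 to 0.093 for *CNA1*, −0.11 to 0.24 for *CMP2*, −0.054 to 0.082 for *CNB1*, −0.42 to 0.19 for *RCN1*, −0.81 to 0.15 for *CRZ1*, −0.13 to 0.28 for *PMC1* and −0.15 to 0.16 for *PMR1*. With vanillin they were −0.34 to 0.16 for *CMK1* and −0.030 to 0.26 for *CMP2*. In the interaction they were −0.0048 to 0.38 for *CMD1*, −0.31 to 0.20 for *CMK1* and −0.11 to 0.23 for *CMP2*.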
